A study of Mus musculus with 15 samples.

Results

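The 10 genes described here are the ID genes and SMADs of bone morphogenetic protein (BMP) signalling, which were *Id1*, *Id2*, *Id3*, *Id4*, *Smad1*, *Smad5*, *Smad9*, *Smad6*, *Smad7* and *Bambi*. They were taken by name from the 24134 genes of each count table, and all 10 passed the filter on low counts in every fit. Other than *Id1*, they were chosen as members of their families, with earlier results of these data known. *Id1* was selected on its measured fold changes, which had been seen to differ between XAV939 and knockdown of tankyrase, so its values are given as a description and were not tested.

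All 15 libraries came from primary articular chondrocytes of ICR mice in the first week of life, isolated from femoral condyles and tibial plateaus and used without passaging in medium with fetal bovine serum. The siRNA set held 3 libraries with control siRNA (siCtrl) and 3 with siRNAs against both *Tnks* and *Tnks2* (siTnks/2), for a time not given in the sources used here. The drug set held 3 libraries each with DMSO, with 10 μM XAV939 and with 10 μM IWR-1, all after 108 h. XAV939 and IWR-1 are small molecules that inhibit tankyrase 1 and 2, enzymes that attach poly(ADP-ribose) to other proteins, and both were compared with the same DMSO libraries. The siRNAs were aimed at the transcripts and the compounds at the proteins, and no BMP was stated to have been added in any group.

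BMPs bind pairs of type I and type II serine/threonine kinase receptors, which phosphorylate SMAD1, SMAD5 and SMAD9. These bind SMAD4 and enter the nucleus. The ID genes are among the best known direct targets of that complex. ID proteins are helix-loop-helix proteins without a DNA-binding region, and they hold basic helix-loop-helix (bHLH) factors away from DNA. SMAD6, SMAD7 and BAMBI are feedback inhibitors: SMAD6 acts mainly on the BMP branch, SMAD7 on both the BMP and the TGF-β branch, and BAMBI is a pseudoreceptor without a kinase domain. In growing cartilage, BMP signalling is known for its part in forming and maintaining chondrocytes.

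Between 26857070 and 36615194 reads were counted on genes per library. The lowest count of any of the 10 genes in any library was 120, for *Bambi* with DMSO. In the knockdown libraries *Tnks* measured 12.7 to 24.0 CPM (read counts scaled to a common library size with TMM within each table) against 58.4 to 70.1 CPM with control siRNA, and *Tnks2* measured 44.9 to 61.2 CPM against 115 to 119.6 CPM. In the drug set *Tnks2* was also lower with XAV939 (log2 fold change −0.41, SE 0.12, edgeR adjusted p = 0.0394), and it measured −0.27 with IWR-1 (adjusted p = 0.105), with the libraries of both compounds below those with DMSO. *Tnks* measured −0.72 with XAV939 (adjusted p = 0.263) and −0.19 with IWR-1 (adjusted p = 0.754), and the libraries of both compounds overlapped those with DMSO. Replicate 3 of DMSO measured 64.1 CPM of *Tnks*, whereas the other DMSO libraries measured at most 26.2 CPM and those with XAV939 13.6 to 26.9 CPM. Both *Tnks* values therefore depend on that library. The cartilage markers *Col2a1* and *Acan* were abundant in every group. Summed over 9 chondrocyte markers, levels ran from 80746.6 to 109691.7 CPM with control siRNA and from 117638.9 to 195732.5 CPM with knockdown. In the drug set they ran from 25834.7 to 35087.8 CPM under DMSO, 36081.8 to 54904.3 CPM under XAV939 and 86680.1 to 110940.2 CPM under IWR-1. The sum of 6 fibroblast and tendon markers ran from 8574.2 to 10732.7 CPM under DMSO, 3865.9 to 5097.2 CPM under XAV939 and 2939.5 to 4720.5 CPM under IWR-1. The sum of 5 osteoblast and osteocyte markers was 59.5 to 71.1 CPM with control siRNA and 77.6 to 132 CPM with knockdown, where *Phex* rose (log2 2.32, edgeR adjusted p = 0.00586) and the defining marker *Bglap* measured 2.24 (adjusted p = 0.0589, and 6.92e-04 with the replicate number as a block). This sum overlapped among the drug groups (42.6 to 66.4 CPM), although *Bglap* rose with XAV939 (1.91, adjusted p = 0.00687) and IWR-1 (1.54, adjusted p = 0.00946). The sum of 8 leukocyte markers was 8.51 to 12.2 CPM for DMSO, 7.36 to 10.7 CPM for XAV939 and 4.48 to 5.91 CPM for IWR-1. With IWR-1 *Cd68* (−1.03, edgeR adjusted p = 8.8e-04) and *Csf1r* (−1.26, adjusted p = 0.0215) fell, as did the endothelial *Tek* (−2.79, adjusted p = 3.74e-04), while *Ptprc* reached at most 5 counts in any library. In these bulk samples, fewer cells of a type and less RNA per cell cannot be told apart, and the part of these shifts in the results below was not tested. The summed level of 8 endothelial markers was 0.52 to 1.71 CPM in 14 libraries and 9.95 CPM in replicate 2 of knockdown, where the higher of the defining markers *Pecam1* and *Cdh5* reached 89 counts. Correlations of that library with its group mates (r = 0.978 and 0.982, log2 CPM across genes) were among the lowest within a group, so values without it are given below. Without it the log2 fold change after knockdown was −0.041 for *Id2*, 0.22 for *Smad1* and 0.13 for *Smad5*, and none of these passed. Replicate 3 of DMSO also correlated less with replicate 2 of its group than most pairs within a group did (r = 0.983).

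The ID genes differed in level. Per kilobase of exon, with all 15 libraries scaled together, *Id3* was the highest of the 10 genes and *Id1* the next in all 5 groups, followed by *Id2*. With control siRNA their levels were 136 ± 4.66, 65.7 ± 4.89 and 23.7 ± 1.71 CPM per kb (SD, n = 3), and with DMSO they were 70.7 ± 8.06, 24.4 ± 4.52 and 21.5 ± 2.10 CPM per kb. With DMSO the libraries of *Id1* (19.4 to 28.2 CPM per kb) and *Id2* (19.4 to 23.6 CPM per kb) overlapped, so that the order of this pair was not larger than its spread. *Id4* was the scarcest ID gene, at 1.42 ± 0.18 CPM per kb with DMSO and 5.88 ± 1.05 CPM per kb with knockdown. Of the summed ID level, *Id3* made up 59.6% ± 2.12 with control siRNA, 53.9% ± 4.41 with knockdown and 60.4% ± 1.34 with IWR-1. Among the other 6 genes *Smad5* and *Smad6* led with control siRNA, at 10.3 ± 0.23 and 10.8 ± 2.23 CPM per kb, and their libraries overlapped. The lowest level of the 10 genes with DMSO was that of *Bambi*, at 0.899 ± 0.200 CPM per kb. The siRNA and drug sets were cultured under different treatments, and a difference between their control groups cannot be told apart from a difference between the sets.

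**Figure D1:**
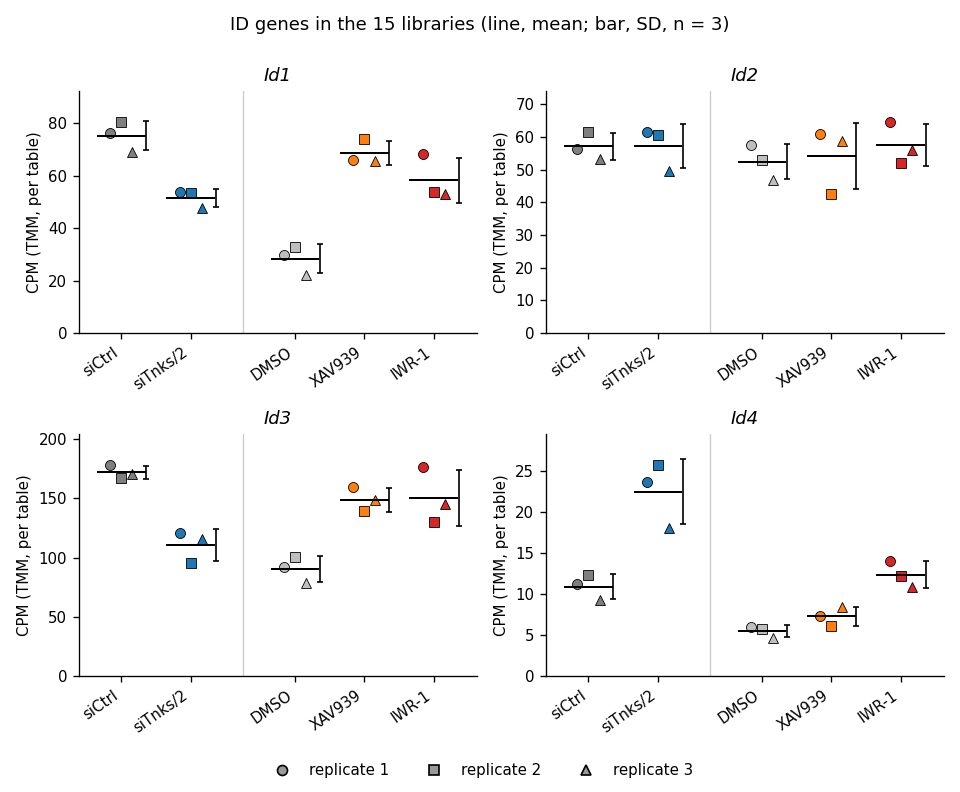
Levels of *Id1*, *Id2*, *Id3* and *Id4* (vertical axes, CPM scaled with TMM within each table, from 0) in the 5 groups (horizontal axes), with one symbol per library, its shape giving the replicate number, the mean as a line and the SD as a bar (n = 3). For *Id1* and *Id3* the knockdown libraries lay below their controls and the libraries with either compound above theirs, whereas the libraries of *Id2* overlapped throughout.

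*Id1* (gene ID 15901, chromosome 2, 152736251 to 152737410, mm10, plus strand) encodes an inhibitor of bHLH factors whose transcript is a common readout of BMP signalling. Its level was 76.4, 80.4 and 69.2 CPM with control siRNA (replicates 1, 2 and 3, the order used throughout) and 53.9, 53.3 and 47.7 CPM with knockdown. It was 29.8, 32.9 and 22.3 CPM under DMSO, 66.2, 74.0 and 65.7 CPM under XAV939 and 68.2, 53.8 and 52.9 CPM under IWR-1. All 3 knockdown libraries were below all 3 of their controls, and the libraries with either compound were above all DMSO libraries. The fitted level was 1.46-fold lower with knockdown, 2.42-fold higher with XAV939 and 2.05-fold higher with IWR-1. Without replicate 2 of knockdown the log2 fold change with knockdown was −0.57, against −0.54 with it. Without replicate 3 of DMSO the log2 fold change with XAV939 was 1.12, against 1.27 with it. With IWR-1 the lowest value with a library left out was 0.89, against 1.04 with all libraries. The difference that singled out the gene was 1.81 on the log2 scale (XAV939 effect minus knockdown effect), and the same difference for IWR-1 was 1.57.

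*Id3* (gene ID 15903, chromosome 4, 136143822 to 136145392, plus strand), the ID gene most similar to *Id1* in these data, fell with knockdown and rose with both compounds. It measured 178, 167 and 170.3 CPM with control siRNA and 120.45, 95.6 and 116 CPM with knockdown. Its level was 91.9, 101 and 78.9 CPM under DMSO, 159, 139 and 148 CPM under XAV939 and 176, 129.7 and 145 CPM under IWR-1. The groups did not overlap in any of the 3 comparisons with controls. Its log2 fold change was −0.63 with knockdown (SE 0.093, edgeR's quasi-likelihood test with Benjamini-Hochberg adjustment, adjusted p = 0.00859), 0.72 under XAV939 (SE 0.13, adjusted p = 0.00463) and 0.73 with IWR-1 (SE 0.13, adjusted p = 0.00146). Without replicate 2 of knockdown the fall was −0.54 (adjusted p = 0.00227). Without replicate 3 of DMSO the rise with XAV939 was 0.62 (edgeR adjusted p = 0.0124). With IWR-1 the lowest rise with a library left out was 0.60. The effect of XAV939 exceeded that of knockdown by 1.34 (log2, SE 0.17, edgeR adjusted p = 2.6e-04), and that of IWR-1 exceeded it by 1.36 (SE 0.17, adjusted p = 6.73e-05). IWR-1 and XAV939 differed by 0.02, with a 95% interval from −0.28 to 0.31 (adjusted p = 0.956).

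*Id4* (gene ID 15904, chromosome 13, 48261116 to 48266028, plus strand), which encodes the member of the family often described as acting against the other IDs, rose with knockdown and with IWR-1. Its level was 11.2, 12.3 and 9.25 CPM with control siRNA and 23.6, 25.6 and 18.0 CPM with knockdown. It was 6.01, 5.73 and 4.65 CPM under DMSO, 7.28, 6.15 and 8.39 CPM under XAV939 and 14.0, 12.1 and 10.8 CPM under IWR-1. The libraries of all 3 treatments lay above their controls, those with XAV939 by the smallest margin. On the log2 scale the change was 1.04 with knockdown (SE 0.16, edgeR adjusted p = 0.0106), 0.41 under XAV939 (SE 0.17, adjusted p = 0.113) and 1.17 with IWR-1 (SE 0.17, adjusted p = 2.97e-04). Without replicate 2 of knockdown the rise was 0.94 (adjusted p = 0.00882). IWR-1 exceeded XAV939 by 0.76 (log2, SE 0.16, edgeR adjusted p = 0.00955). The effect of XAV939 minus that of knockdown was −0.64, with edgeR adjusted p = 0.0888, and adjusted p = 0.0221 with the replicate number as a block. It also passed without replicate 3 of knockdown (−0.78, adjusted p = 0.041). The start of *Id4* overlaps the span of the long noncoding RNA *A330033J07Rik*, whose highest count in any library was 32.

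*Id2* (gene ID 15902, chromosome 12, 25093799 to 25096092, minus strand) passed no test. It measured 56.4, 61.6 and 53.3 CPM with control siRNA and 61.6, 60.6 and 49.5 CPM with knockdown. With DMSO it measured 57.5, 52.9 and 46.9 CPM, with XAV939 60.9, 42.5 and 58.8 CPM and with IWR-1 64.5, 52.2 and 55.9 CPM. The 95% interval of its log2 fold change was −0.24 to 0.24 with knockdown (edgeR adjusted p = 0.99), −0.28 to 0.37 with XAV939 (adjusted p = 0.862) and −0.19 to 0.46 with IWR-1 (adjusted p = 0.519). All groups overlapped.

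**Figure D2:**
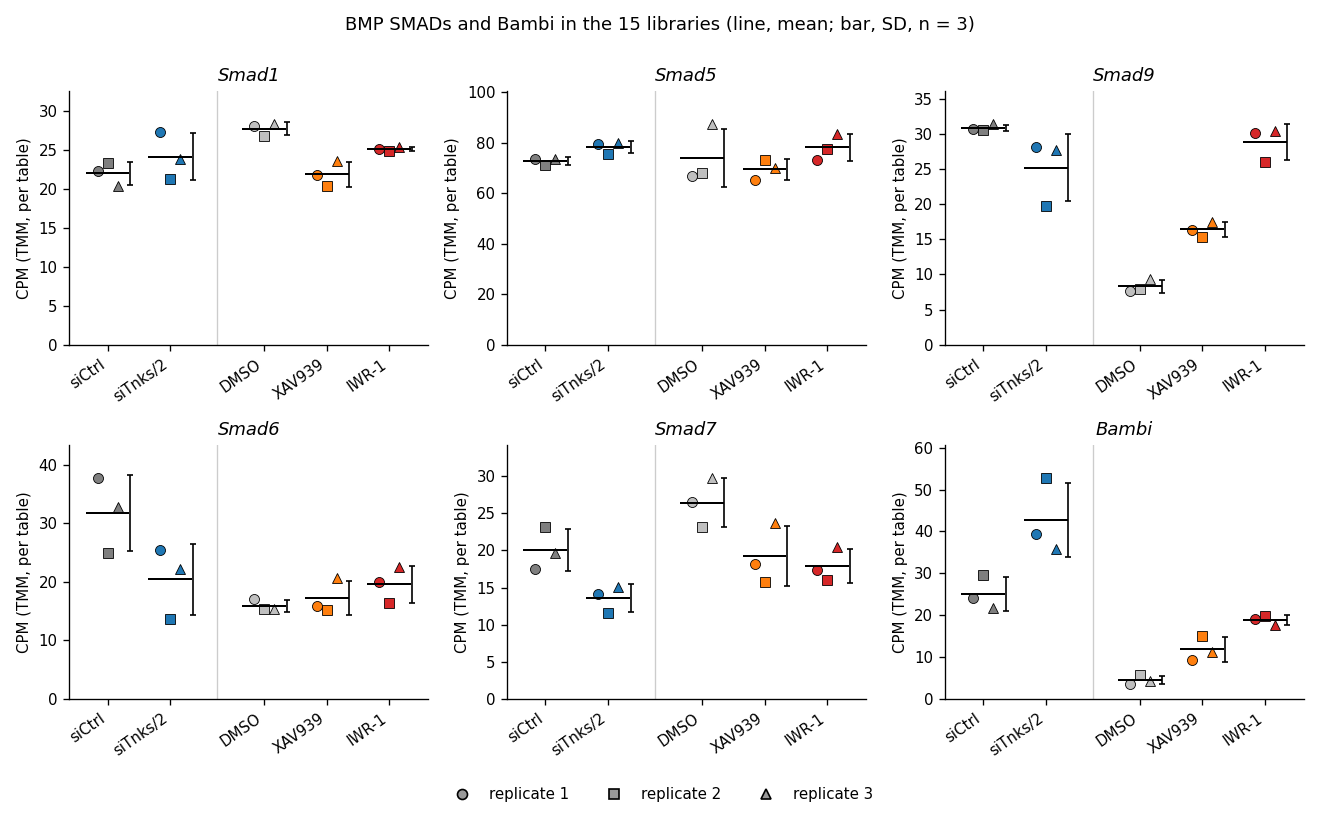
Levels of the receptor-activated BMP SMADs (*Smad1*, *Smad5*, *Smad9*), the inhibitory SMADs (*Smad6*, *Smad7*) and *Bambi* (vertical axes, CPM scaled with TMM within each table, from 0) in the 5 groups, with one symbol per library, the mean as a line and the SD as a bar (n = 3). *Smad9* ran from 7.62 to 9.37 CPM under DMSO and from 26.0 to 30.5 CPM under IWR-1, and *Bambi* was higher than its controls with all 3 treatments.

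Of the 3 SMADs that BMP receptors phosphorylate, *Smad9* moved most. *Smad9* (gene ID 55994, chromosome 3, 54755455 to 54801662, plus strand) encodes the one of them that is usually described as a weak activator. It measured 7.62, 8.003 and 9.37 CPM under DMSO, 16.3, 15.4 and 17.5 CPM under XAV939 and 30.1, 26.0 and 30.5 CPM under IWR-1. With control siRNA it was 30.7, 30.5 and 31.4 CPM and with knockdown 28.2, 19.7 and 27.7 CPM. The 3 drug groups were separate and in the order DMSO, XAV939, IWR-1, and the knockdown libraries lay below their controls. The log2 fold change was 0.98 with XAV939 (SE 0.12, edgeR adjusted p = 5.55e-04) and 1.79 with IWR-1 (SE 0.12, adjusted p = 3.68e-06), and IWR-1 exceeded XAV939 by 0.81 (SE 0.12, adjusted p = 0.00129). With knockdown it was −0.29 (SE 0.14, edgeR adjusted p = 0.174), and −0.14 without replicate 2 of knockdown (adjusted p = 0.133). The effect minus that of knockdown was 1.26 for XAV939 (SE 0.18, edgeR adjusted p = 7.53e-04) and 2.07 for IWR-1 (SE 0.18, adjusted p = 5.13e-06).

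*Smad1* (gene ID 17125, chromosome 8, 79338395 to 79399428, minus strand) fell with XAV939, by 0.34 on the log2 scale (SE 0.096, edgeR adjusted p = 0.032). With the replicate number as a block, edgeR's adjusted p was 0.011. Its level was 28.1, 26.8 and 28.3 CPM under DMSO, 21.7, 20.3 and 23.5 CPM under XAV939 and 25.1, 24.9 and 25.4 CPM under IWR-1. In the siRNA set it was 22.3, 23.3 and 20.4 CPM with control and 27.2, 21.2 and 23.8 CPM with knockdown. The libraries with XAV939 lay below those with IWR-1, which lay below those with DMSO, and the siRNA groups overlapped. Its log2 fold change was −0.14 with IWR-1 (SE 0.095, edgeR adjusted p = 0.283) and 0.13 with knockdown (SE 0.11, adjusted p = 0.414). The call with XAV939 was lost without DMSO replicate 1, DMSO replicate 2, XAV939 replicate 1, XAV939 replicate 2 or IWR-1 replicate 2 (−0.37 to −0.29, adjusted p from 0.0509 to 0.107), with upper-quartile normalization (−0.29, adjusted p = 0.0551) and in a fit of only these 2 groups (−0.36, adjusted p = 0.0937).

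For *Smad1* the effect of XAV939 minus that of knockdown was −0.49 (SE 0.14, edgeR adjusted p = 0.0315). This call was lost without replicate 1 or 3 of control siRNA, replicate 1 of knockdown, replicate 1 or 3 of DMSO, replicate 1 or 2 of XAV939 or replicate 2 of IWR-1 (−0.50 to −0.39, adjusted p from 0.0504 to 0.0877). It was also lost with upper-quartile normalization, without the filter on low counts and in a fit of only the 4 groups compared (adjusted p from 0.0577 to 0.0644). It passed with the replicate number as a block (edgeR adjusted p = 0.013).

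*Smad5* (gene ID 17129, chromosome 13, 56703010 to 56742378, plus strand) passed no test. It measured 73.7, 71.0 and 73.5 CPM with control siRNA, 79.5, 75.4 and 79.9 CPM with knockdown, 66.7, 68.1 and 87.2 CPM under DMSO, 65.1, 73.1 and 70.1 CPM under XAV939 and 73.1, 77.6 and 83.5 CPM under IWR-1. Replicate 3 of DMSO stood above the other 2. The 95% interval of the log2 fold change was −0.02 to 0.23 with knockdown (edgeR adjusted p = 0.196), −0.35 to 0.17 with XAV939 (adjusted p = 0.627) and −0.18 to 0.34 with IWR-1 (adjusted p = 0.656).

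Among the feedback inhibitors, *Bambi* rose with all 3 treatments. *Bambi* (gene ID 68010, chromosome 18, 3507011 to 3516404, plus strand) measured 24.2, 29.6 and 21.6 CPM with control siRNA and 39.5, 52.7 and 35.9 CPM with knockdown. It measured 3.66, 5.70 and 4.34 CPM under DMSO, 9.32, 15.05 and 11.1 CPM under XAV939 and 19.1, 19.8 and 17.6 CPM under IWR-1. No treated library overlapped its controls, and the libraries with IWR-1 lay above those with XAV939. On the log2 scale the change was 0.76 with knockdown (SE 0.17, edgeR adjusted p = 0.0271), 1.37 under XAV939 (SE 0.20, adjusted p = 0.00142) and 2.04 with IWR-1 (SE 0.20, adjusted p = 3.1e-05). The call with knockdown was lost without replicate 1 or 3 of control siRNA or replicate 1 of knockdown (0.67 to 0.82, adjusted p from 0.0682 to 0.101), and without replicate 2 of knockdown it was 0.59 (adjusted p = 0.0212). With the replicate number as a block the change with knockdown was 0.76 (edgeR adjusted p = 0.00166).

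IWR-1 exceeded XAV939 for *Bambi* by 0.67 on the log2 scale (SE 0.19, edgeR adjusted p = 0.035). That call was lost without replicate 1 or 3 of XAV939 or without any 1 of the 3 IWR-1 replicates (0.53 to 0.72, adjusted p from 0.0602 to 0.12). It passed with the replicate number as a block (edgeR adjusted p = 0.00165). The effect of IWR-1 exceeded that of knockdown by 1.27 (SE 0.28, edgeR adjusted p = 0.00447). For XAV939 this difference was 0.59, with edgeR adjusted p = 0.179, and adjusted p = 0.0168 with the replicate number as a block.

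*Smad7* (gene ID 17131, chromosome 18, 75367365 to 75395935, plus strand), which encodes the inhibitory SMAD of both branches, fell with knockdown and with IWR-1. Its level was 17.5, 23.1 and 19.7 CPM with control siRNA and 14.2, 11.5 and 15.04 CPM with knockdown. It was 26.4, 23.1 and 29.7 CPM under DMSO, 18.2, 15.8 and 23.7 CPM under XAV939 and 17.4, 16.0 and 20.4 CPM under IWR-1. The knockdown and IWR-1 libraries lay below their controls, and replicate 3 of XAV939 reached into the range of DMSO. The log2 fold change was −0.56 with knockdown (SE 0.14, edgeR adjusted p = 0.0373), −0.46 under XAV939 (SE 0.16, adjusted p = 0.0804) and −0.56 with IWR-1 (SE 0.16, adjusted p = 0.0216). With XAV939 it passed with the replicate number as a block (−0.47, edgeR adjusted p = 0.00273), with DESeq2's Wald test (adjusted p = 0.0493) and without replicate 3 of XAV939 (−0.65, adjusted p = 0.0214).

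For *Smad7* the call with knockdown was lost without any 1 of the 3 control libraries or replicate 1 of knockdown (−0.65 to −0.45, edgeR adjusted p from 0.0631 to 0.098), and without replicate 2 of knockdown it was −0.46 (adjusted p = 0.0418). The call with IWR-1 was lost without replicate 1 or 3 of DMSO or replicate 1 or 2 of IWR-1 (−0.56 to −0.47, adjusted p from 0.0562 to 0.0926). With the replicate number as a block both calls passed (edgeR adjusted p = 0.0341 with knockdown and 3.71e-04 with IWR-1). The effect minus that of knockdown had a 95% interval from −0.40 to 0.58 for XAV939 (edgeR adjusted p = 0.832) and from −0.50 to 0.49 for IWR-1 (adjusted p = 0.99).

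*Smad6* (gene ID 17130, chromosome 9, 63953076 to 64022085, minus strand), which encodes the inhibitory SMAD of the BMP branch, measured 37.7, 24.9 and 32.8 CPM with control siRNA and 25.4, 13.7 and 22.3 CPM with knockdown. Replicate 2 was the lowest library of both groups, and each knockdown library lay below the control of its own number although the groups overlapped. In the drug set it measured 17.1, 15.3 and 15.4 CPM under DMSO, 15.8, 15.3 and 20.6 CPM under XAV939 and 19.9, 16.3 and 22.6 CPM under IWR-1, with all groups overlapping. The log2 fold change with knockdown was −0.64 (SE 0.24, edgeR adjusted p = 0.112), −0.66 with the replicate number as a block (adjusted p = 0.00477) and −0.64 with DESeq2's Wald test (adjusted p = 0.046). Without replicate 2 of knockdown it was −0.42 (edgeR adjusted p = 0.121). It was 0.11 with XAV939 (SE 0.15, edgeR adjusted p = 0.643) and 0.30 with IWR-1 (SE 0.15, adjusted p = 0.15).

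For *Smad6* the effect of IWR-1 exceeded that of knockdown by 0.93 (SE 0.29, edgeR adjusted p = 0.0316). This call was lost without replicate 1 or 3 of control siRNA, replicate 2 of knockdown, any 1 of the 3 DMSO replicates or replicate 1 or 3 of IWR-1 (0.70 to 0.96, adjusted p from 0.0516 to 0.0865). It passed with the replicate number as a block (0.94, edgeR adjusted p = 4.33e-04). For XAV939 the difference was 0.74, with edgeR adjusted p = 0.109, and adjusted p = 0.00389 with the block.

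**Figure D3:**
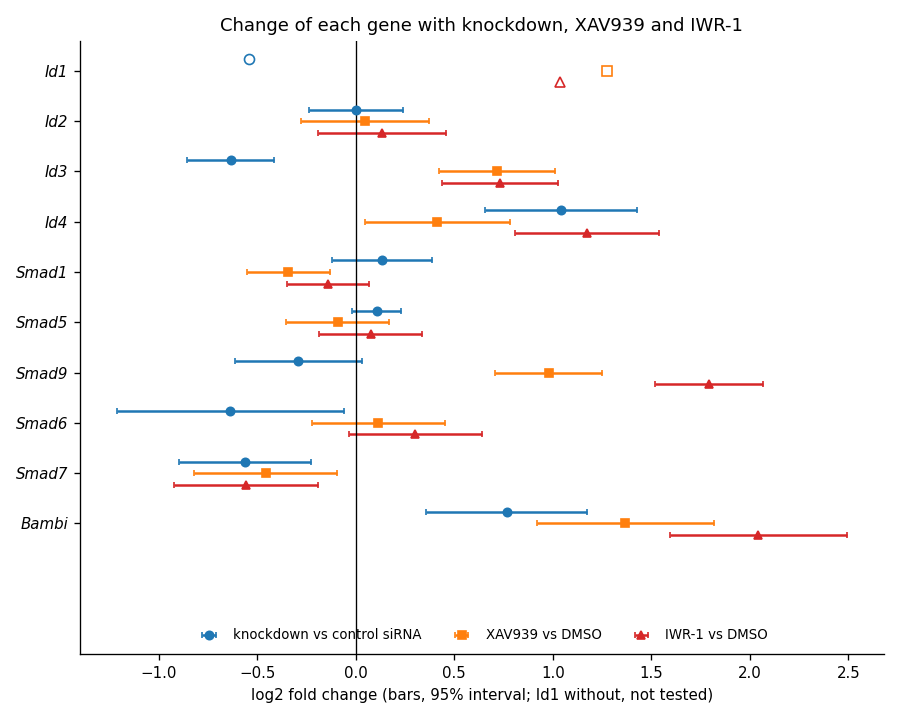
Log2 fold change of each gene (horizontal axis, bars give the 95% interval computed from the SE) with knockdown against control siRNA (circles), XAV939 against DMSO (squares) and IWR-1 against DMSO (triangles). The intervals are not adjusted over genes, so some exclude 0 for genes that were not called. *Bambi* lay above 0 and *Smad7* below 0 with all 3 treatments, *Id3* changed side between knockdown and the compounds, and *Id1* is drawn with open symbols and no interval because it was not tested.

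Over the 9 genes other than *Id1*, knockdown gave 2 genes higher (*Id4*, *Bambi*) and 2 lower (*Id3*, *Smad7*) at an adjusted p under 0.05, where 10.4% of the 13672 genes tested were higher and 7.61% lower. The count of 4 was also found without replicate 2 of knockdown, and it was 2 without replicate 1 or 3 of control siRNA or replicate 1 of knockdown. XAV939 gave 3 higher (*Id3*, *Smad9*, *Bambi*) and 1 lower (*Smad1*), where 7.57% of the 13873 genes tested were higher and 9.85% lower. IWR-1 gave 4 higher (*Id3*, *Id4*, *Smad9*, *Bambi*) and 1 lower (*Smad7*), beside 16.2% and 20.2%. Between the compounds, 3 genes were higher with IWR-1 than with XAV939 (*Id4*, *Smad9*, *Bambi*) and 0 lower, beside 7.37% and 10.2%. Across these 9 genes, log2 fold changes had a median of 0.00 after knockdown (−0.00 over all genes tested), of 0.11 under XAV939 (0.02 over all genes) and of 0.30 under IWR-1 (0.01 over all genes). Genes of the set were called in both directions with each of the 3 treatments.

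The knockdown and each compound were then compared within a single model over all 15 libraries, which had 14271 genes. The effect of XAV939 was higher than that of knockdown for 2 of the 9 genes (*Id3*, *Smad9*) and lower for 1 (*Smad1*), where 5.4% of all genes were higher and 8.07% lower. With the replicate number as a block the total rose from 3 to 6 genes, with *Id4*, *Smad6* and *Bambi* added, while the genes called over the whole table rose to 28.2% in either direction. The effect of IWR-1 was higher than that of knockdown for 4 genes (*Id3*, *Smad9*, *Smad6*, *Bambi*) and lower for 0, beside 10.5% and 13.9%. For *Id3* the effects had opposite signs and each passed its own test. The siRNA and drug sets differ in transfection or vehicle, in their control libraries and possibly in culture time, and these cannot be told apart from the way tankyrase was targeted.

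**Figure D4:**
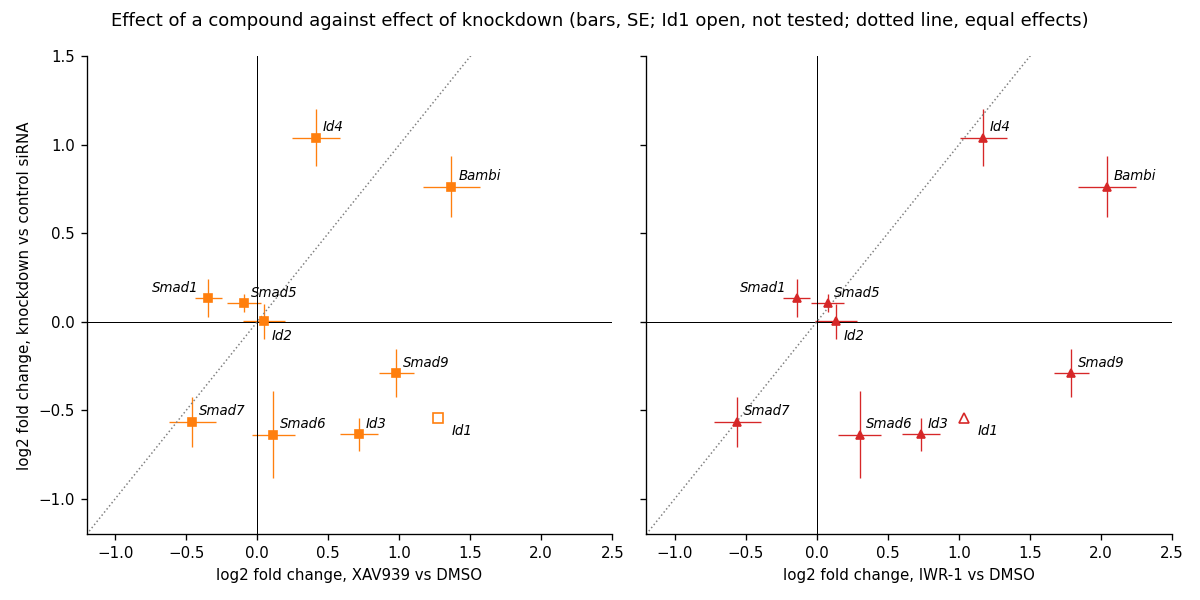
Log2 fold change with XAV939 (left) or IWR-1 (right) on the horizontal axes against the log2 fold change with knockdown on the vertical axes for the 10 genes, with bars for the SE and a dotted line where both effects are equal. *Id3*, *Smad9* and *Smad6* lay to the right of 0 and below 0, *Bambi* and *Id4* lay above and to the right of 0, and both panels share the knockdown values.

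The 250 bases before the annotated transcript start were read for the genes whose windows RefSeq gives on GRCm38, the assembly that mm10 names. Of the 10 genes, 7 had such windows (9 windows), and *Id1*, *Smad7* and *Bambi* had none in the table. A pair of short motifs linked to SMAD binding was searched on both strands. The GC-rich element GGCGCC is its own reverse complement and occurred in 9.59% of 32851 windows, and the SMAD box CAGAC, which reads as GTCTG on the other strand, occurred in 42.2%. They can share 1 letter where they meet. GGCGCC was present in 4 member windows (*Id2*, *Id4*, 1 of *Smad5* and *Smad9*) and CAGAC in 2 (*Id3* and 1 of *Smad5*). Below are the stretches upstream of any annotated exon for 3 genes that behaved differently, with motif matches in capitals, 5′ to 3′ on the strand of the gene. *Id4* rose with knockdown and IWR-1 (chr13:48260866-48261115, plus strand, 75.6% G and C), and *Smad9* rose with the compounds (chr3:54755332-54755454, plus strand, 63.4%). *Smad6* was not called against its controls with any treatment (chr9:64022086-64022309, minus strand, 66.5%). Each of its knockdown libraries lay below the control of its own number, although the groups overlapped.
Id4: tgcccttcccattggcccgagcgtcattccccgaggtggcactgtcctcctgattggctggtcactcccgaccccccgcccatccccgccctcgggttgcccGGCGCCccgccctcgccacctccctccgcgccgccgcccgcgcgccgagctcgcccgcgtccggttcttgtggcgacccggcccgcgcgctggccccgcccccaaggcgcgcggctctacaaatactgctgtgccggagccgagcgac
Smad9: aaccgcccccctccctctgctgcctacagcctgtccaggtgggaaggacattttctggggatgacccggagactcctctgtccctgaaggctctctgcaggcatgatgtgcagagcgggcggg
Smad6: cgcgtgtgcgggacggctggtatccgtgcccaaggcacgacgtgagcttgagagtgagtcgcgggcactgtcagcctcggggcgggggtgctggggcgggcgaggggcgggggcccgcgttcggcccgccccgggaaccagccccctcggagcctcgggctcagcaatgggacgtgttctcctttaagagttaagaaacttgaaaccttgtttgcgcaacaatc
The stretch of *Id4* holds 1 match to GGCGCC, and the match of *Smad9* lies downstream of the stretch shown. *Smad6* has no match to either motif. The first transcribed bases of the *Smad9* and *Smad6* windows were found in GENCODE transcripts of these genes. For *Id4* the orientation rests on RefSeq alone, because its GENCODE transcript starts at 48261228, downstream of the whole window, and could not be compared.

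The 5 genes whose levels followed *Id1* most closely over the 15 libraries, after centring each table on its own mean, were *Actl6a* (r = 0.968), *Dtymk* (r = 0.942), *Mrm3* (r = 0.939), *H2az1* (r = 0.938) and *Haus7* (r = 0.936), of 14270 genes. These are descriptions over libraries that share controls and depth. *Actl6a* encodes a subunit of chromatin remodelling complexes, *Dtymk* thymidylate kinase, *H2az1* a histone variant and *Haus7* a subunit of the augmin complex of the spindle. Their log2 fold changes were smaller than those of *Id1*, from −0.30 to −0.13 with knockdown, from 0.38 to 0.69 with XAV939 and from 0.34 to 0.62 with IWR-1. That these changes share the directions of *Id1* follows from the ranking in the same libraries and is not a separate result. Of the other members, *Id3* was the closest to *Id1* (r = 0.904, rank 28), followed by *Smad9* (r = 0.709) and *Bambi* (r = 0.613), while *Id2* (r = 0.211) and *Id4* (r = 0.231) were far from it and *Smad1* was on the other side (r = −0.744).

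**Figure D5:**
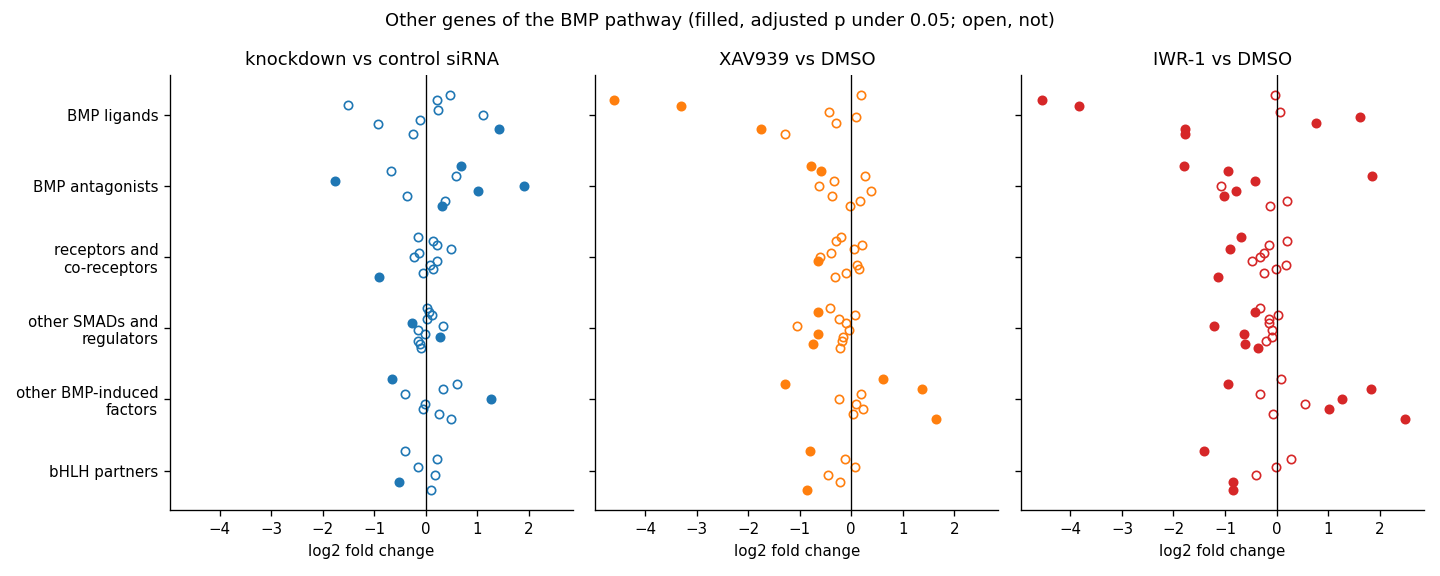
Log2 fold change (horizontal axes) of the other BMP pathway genes in 6 lists (vertical axis) with knockdown, XAV939 and IWR-1, with one symbol per gene, filled where the edgeR adjusted p was under 0.05. Of the ligands, *Bmp3* and *Bmp4* lay furthest below 0 with both compounds, and *Gdf5* lay above 0 with knockdown and below 0 with the compounds.

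The rest of the pathway was described with 6 lists holding 58 other genes. With knockdown 7 of the 56 tested were higher and 5 lower, with XAV939 3 of 55 were higher and 12 lower, and with IWR-1 7 of 55 were higher and 21 lower. The background shares over the whole table were 10.4% up and 7.61% down after knockdown, 7.57% up and 9.85% down for XAV939, and 16.2% up and 20.2% down for IWR-1, and the count of each list is to be read against them. With the replicate number as a block the totals were 29 with knockdown and 27 with XAV939, against 12 and 15 without it. The block raised the calls over all genes as well, to 34.6% in either direction after knockdown, 33.4% for XAV939 and 47.5% for IWR-1, and the blocked counts of the lists are to be read against these shares. The total with knockdown was 4 without replicate 1, 7 without replicate 2 and 5 without replicate 3 of control siRNA, 7 without replicate 1 of knockdown and 18 without replicate 2 of knockdown.

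Of 9 BMP ligands, *Gdf5*, which marks the joint-forming region and articular cartilage, rose with knockdown (log2 fold change 1.42, SE 0.24, edgeR adjusted p = 0.0127) as the only one called, and the median of the list was 0.22. With XAV939, 3 of 8 ligands tested fell and 0 rose, beside 9.85% and 7.57% of all genes. These were *Bmp3* (−4.61), the ligand usually described as opposing the others, *Bmp4* (−3.30) and *Gdf5* (−1.75). With IWR-1, 4 of 8 fell, with *Bmp3* (−4.56), *Bmp4* (−3.83) and *Gdf5* (−1.77) the strongest calls, and 2 rose, beside 20.2% and 16.2% of all genes. The 2 that rose were *Bmp6* (1.62) and *Bmp7* (0.78). The effect on *Gdf5* differed from that of knockdown by −3.18 for XAV939 (edgeR adjusted p = 2.68e-05) and by −3.20 for IWR-1 (adjusted p = 3.62e-06). These falls, and the rises of *Bmp6* and *Bmp7* with IWR-1, were measured in the same libraries in which *Id3*, *Smad9* and *Bambi* rose. With the block, 5 ligands were called with knockdown and 5 with XAV939.

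Of 9 extracellular antagonists tested, 4 rose and 1 fell with knockdown, beside 10.4% and 7.61% of all genes. *Grem1*, which binds BMP2 and BMP4, rose by 1.91 (SE 0.24, edgeR adjusted p = 0.00603), and *Fst*, which binds activins and some BMPs, fell by 1.77 on the log2 scale (SE 0.24, adjusted p = 0.00741). *Bmper*, a BMP-binding protein of the extracellular matrix, rose with knockdown (0.68) and fell with XAV939 (−0.79) and IWR-1 (−1.79). The list had 0 higher and 2 lower with XAV939, and 1 higher and 5 lower with IWR-1, where *Chrdl1* rose (1.85) and *Nbl1* fell (−1.01). *Chrd*, the BMP antagonist chordin, fell with XAV939 (−0.58) and IWR-1 (−0.95). With knockdown it measured −0.68 (edgeR adjusted p = 0.0677, and 0.00783 with the block). With the block the list had 9 called with knockdown and 6 with XAV939.

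Of 11 receptors and co-receptors tested, 1 fell with knockdown, *Tgfbr3* (−0.91), a co-receptor of TGF-β ligands. With XAV939 *Bmpr2*, the type II BMP receptor, was the only one called (−0.65). With IWR-1, 3 fell and 0 rose, near the 20.2% of all genes that fell, and these were *Tgfbr3* (−1.14), *Acvr1* (−0.70) and *Acvrl1* (−0.90), the latter pair encoding type I receptors. With the block 2, 4 and 5 were called with knockdown, XAV939 and IWR-1.

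Of 12 other SMADs and SMAD regulators, *Smad4*, the common partner, rose (0.27) and *Ski*, a corepressor, fell (−0.27) with knockdown. With XAV939, 3 fell (9.85% of all genes) and 0 rose, and with IWR-1 5 fell (20.2% of all genes) and 0 rose. *Smad3*, which carries TGF-β signals, fell by 0.64 with XAV939 and by 0.63 with IWR-1 on the log2 scale. *Smurf2* and *Nedd4l*, ubiquitin ligases that act on SMADs or their receptors, measured −0.74 and −0.65 with XAV939 and −0.62 and −0.42 with IWR-1. With the block 5 of the list were called with XAV939.

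Of 9 other transcription factors induced by BMP, 1 rose and 1 fell with knockdown. These were *Hey1* (1.26), also a target of Notch signalling, and *Atoh8* (−0.66). With XAV939, 3 rose and 1 fell (7.57% and 9.85% of all genes), and with IWR-1 4 rose and 1 fell (16.2% and 20.2% of all genes). *Sp7*, which encodes osterix, the osteoblast factor also found in maturing chondrocytes, rose by 1.65 with XAV939 and 2.504 with IWR-1. *Dlx5* rose by 1.38 and 1.83, *Dlx3* fell with XAV939 (−1.28) and IWR-1 (−0.95), and *Hey1* rose with IWR-1 (1.26). With the block 5 were called with knockdown.

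Of 6 bHLH factors that pair with ID proteins or with each other, 1 fell with knockdown, *Twist1* (−0.53). With XAV939, 2 fell, *Twist2* (−0.85) and *Scx* (−0.80), the latter encoding scleraxis, a factor of tendon. With IWR-1, 3 fell, *Scx* (−1.40), *Twist1* (−0.84) and *Twist2* (−0.85), where 20.2% of all genes fell. None of the ubiquitous partners *Tcf3*, *Tcf4* and *Tcf12* passed in these 3 comparisons without the block. With the block 5 of the list were called after knockdown and 5 under IWR-1.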

How the data were processed

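Poly(A) RNA of 15 libraries, 3 per group, was sequenced after stranded library preparation. For the authors' counts, Trimmomatic (0.32) trimmed the reads, TopHat2 (2.0.13) placed the reads on mm10 and HTSeq (0.6.1p1) tallied them per gene. Which annotation and which strand setting HTSeq used is not given in the sources used here. The deposited values are raw read counts per Entrez gene ID. Of 24134 IDs, 24051 matched a RefSeq symbol and 83 did not. Totals of 26857070 to 36615194 counts per library set the precision, and SDs and SEs rest on 3 libraries per group.

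Counts were analysed here in R 4.3.3 with edgeR 4.0.16 (filterByExpr, TMM, quasi-likelihood F test, prior count 0.125 for log2 fold changes). The 6 libraries of the siRNA table and the 9 of the drug table were fitted separately, and effects were compared between tables in 1 model over the 15 libraries. Benjamini-Hochberg adjustment ran over every gene tested, and a gene is called at 0.05. SEs come from the F statistic. For levels per kilobase, all libraries were scaled together and divided by the summed exon length of GENCODE. No term for the replicate number is in these fits. All tests are two-sided.

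The study states 3 biological replicates per group. Libraries with the same replicate number in their titles were checked for pairing. After the group means were removed, they correlated at r = 0.424 to 0.519 in 3 pairs of the siRNA table and at r = 0.143 to 0.553 in 9 pairs of the drug table, all above 0.1, and other pairs at −0.409 to 0.0972 and −0.489 to 0.318. Values with the number as a block are therefore given where they change a call or move a count by over 1.5 times. They are also given for calls of the members that were lost when a library was left out. The fits with a library left out had no block.

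The members and the gene lists were chosen with earlier results of these data known. Genes named beyond the members are *Tnks* and *Tnks2* and the 5 genes that correlate best with *Id1*. Each pathway or marker list gave up to 3 genes with the smallest adjusted p among those called in a comparison. Defining markers of cell types, *Tcf3*, *Tcf12* and the long noncoding RNA at *Id4* are named whether called or not. Alternatives were RLE and upper-quartile normalization, no filter or a mean of at least 1 CPM, DESeq2 1.42.0, the block, fits of only the groups compared and leaving out each library. Steps were tested on simulated data with the same assumed spread for every gene and few genes changed. The shares recovered therefore do not apply directly to the genes described here. Of 100 genes changed by 1 on the log2 scale, 93% were recovered with knockdown and 94% with XAV939. For XAV939 minus knockdown 49% were recovered. In the data, an uncalled difference is not shown to be absent. False calls made up 4.93%, 5.83% and 6.29% of the calls in these 3 comparisons. At most 0.679% of the 50-base stretches of a member's transcripts occur in another gene. The muscle markers summed to 0.45 to 7.54 CPM, and *Myog* reached at most 5 counts.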

Additional observations from a re-analysis of the deposited data

Results flagged for a closer look

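In 7 cases the effect of a compound differed from that of knockdown by a test of the difference itself, the interaction in edgeR's model over 15 libraries. For XAV939 minus knockdown these were *Id3* (1.34 on the log2 scale), *Smad1* (−0.49) and *Smad9* (1.26). For IWR-1 minus knockdown they were *Id3* (1.36), *Smad9* (2.07), *Smad6* (0.93) and *Bambi* (1.27). Over all genes, 5.4% were higher and 8.07% lower for XAV939 minus knockdown, and 10.5% and 13.9% for IWR-1 minus knockdown. Both differences use the same DMSO, control siRNA and knockdown libraries, so these cases are not independent. The calls of *Id3*, *Smad9* and *Bambi* held with each library left out, whereas those of *Smad1* and *Smad6* did not. No outlier among libraries was tested, since each group had 3.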

How the results depend on the processing

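Of 936 values of the 9 genes tested under the alternatives, 847 kept their direction and side of the threshold, 42 lost a call, 9 gained one and 38 changed sign. The count of genes called with knockdown ran from 2 to 4 (4 with all libraries) when 1 library was left out. All sign changes were of effects near 0 that passed no test. With upper-quartile normalization they were *Id2* with knockdown (−0.0061), *Id3* for IWR-1 against XAV939 (−0.0077), *Smad5* for IWR-1 minus knockdown (0.0018) and *Smad7* for the same difference (0.035), which was 0.00012 with a mean of at least 1 CPM and 0.016 with only the 4 groups compared.

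When 1 library was left out, *Id2* ranged from −0.054 to 0.097 with knockdown, −0.048 to 0.19 with XAV939, −0.057 to 0.18 for IWR-1 against XAV939 and −0.067 to 0.17 for XAV939 minus knockdown. *Id3* ranged from −0.10 to 0.11 for IWR-1 against XAV939. *Id4* ranged from −0.018 to 0.23 for IWR-1 minus knockdown. *Smad5* ranged from −0.16 to 0.031 with XAV939 and from −0.13 to 0.10 for IWR-1 minus knockdown. *Smad6* ranged from −0.050 to 0.19 with XAV939. *Smad7* ranged from −0.22 to 0.080 for IWR-1 against XAV939, from −0.082 to 0.21 for XAV939 minus knockdown and from −0.12 to 0.093 for IWR-1 minus knockdown. The cause of these changes was not tested.

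With the replicate number as a block, *Id2* with knockdown was −0.0016, and 6 genes in place of 3 were called for XAV939 minus knockdown. The block changed no other call of the 9 genes than those given with the results. Of the other pathway genes, it called 29 in place of 12 with knockdown and 27 in place of 15 with XAV939. Leaving out 1 library gave 4 to 18 with knockdown. Over all genes it called 4727 in place of 2459 with knockdown, 4630 in place of 2416 with XAV939 and 4018 in place of 1922 for XAV939 minus knockdown. Depth limits *Bambi* and *Id4* with DMSO most, at 120 and 148 counts in their lowest libraries.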
